A study of Mus musculus with 4 samples.

Results

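Counts of 9 imprinted genes were described in 4 mouse joint libraries. The genes were Meg3, Rian, Mirg, Dlk1 and Rtl1 of the Dlk1-Dio3 domain, H19 and Igf2 of the H19-Igf2 domain, and Peg3 and Cdkn1c from other imprinted domains. They are 9 of the 55036 gene identifiers listed in the files, and all 9 had at least 10 counts over each pair of libraries. The list was drawn up with a high count of Meg3 in one hip library already known, so the genes were chosen by their readout in the hip, and their hip values are a description and not a finding.

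Poly-A RNA labelled as articular cartilage of the hip or the knee was sequenced, with 1 library per condition, in a study of how loss of Cbfβ, the partner subunit of the Runx transcription factors, affects cartilage. In the hip, the control was a Cbfβf/f library labelled with no treatment and no Cre, and the other library came from Cbfβf/f;Col2α1-CreERT mice injected with tamoxifen (TMX), so by the labels Cre and TMX differ together, although the study's methods describe oil or TMX injections of mice with this control's genotype as well. In the knee, both libraries were from Cbfβf/f;Aggrecan-CreERT mice, of which one had received oil and the other TMX. By the labels all 4 libraries therefore carried the floxed Cbfb allele, although one passage of the study calls the hip control wild type, and the Cre was driven by the promoter of type II collagen in the hip and of aggrecan in the knee. The labels' extraction notes name osteoblasts as the source of the RNA, against articular cartilage in the tissue labels. The mice are described as male, 12 weeks old for the knee, and for the hip as 6 weeks old in one place of the study and 2 months old in another. The study's methods place the TMX injections at 2 weeks of age for the Col2α1 line and its Cbfβf/f controls and at 8 weeks for the Aggrecan line, while a legend gives 6 weeks for the knee. The study states a number of mice per group for its experiments in general. How many animals went into each library is not given in the sources used here.

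The libraries held 34264456 to 38473120 counts on genes, and 3 counts, taken as the floor, corresponded to 0.0780 to 0.0876 CPM, the count scaled by the library's total on genes. Cbfb had 2548 counts in the hip control and 2946 in the library labelled as TMX-injected, and 3796 and 4572 in the knee, with log2 ratios after scaling of 0.41 (0.33 to 0.48) and -0.07 (-0.13 to -0.01), so no drop by a large factor in the targeted gene was seen. Adjusted for transcript length and GC content the ratios were -0.21 (-0.28 to -0.13) and 0.08 (0.02 to 0.15), so the direction in both joints depends on that step. A loss of single exons cannot be read from whole-gene counts, and "TMX library" below repeats the label. The defining markers of cartilage were scarce in the hip, with 354 counts of Col2a1 in the control and 228 in the TMX library, and the 16 chondrocyte markers took 0.0314% and 0.0223% of counts. Skeletal muscle markers took 21.7% and 22.3% of the hip counts. In the knee the chondrocyte markers took 0.629% of the control and 0.317% of the TMX counts, and the muscle markers 1.59% and 3.40%. In tissue libraries such as these, fewer cells of a type and less RNA per cell cannot be told apart.

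An imprinted gene is transcribed mainly from the chromosome inherited from one parent, under the control of a DNA region whose methylation differs between the parental copies. In the Dlk1-Dio3 domain, the maternal chromosome makes the long noncoding RNAs Meg3, Rian and Mirg, which lie one after another on the same strand and carry microRNAs and small nucleolar RNAs in their transcripts, while the paternal chromosome makes the proteins Dlk1 and Rtl1. In the H19-Igf2 domain, enhancers beyond H19 serve the noncoding RNA H19 on the maternal and the growth factor gene Igf2 on the paternal chromosome. Many imprinted genes act on fetal growth, are at their highest before birth, and are known from muscle, fat and cartilage progenitors. Gene counts do not separate the parental copies, so every value below is the sum of both.

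Positions are those of GRCm39. Meg3 (ENSMUSG00000021268) lies at chr12:109506877-109538165, Rian (ENSMUSG00000097451) at chr12:109570242-109628150 and Mirg (ENSMUSG00000097391) at chr12:109696198-109715898, all on the plus strand. Dlk1 (ENSMUSG00000040856) lies before them at chr12:109418749-109429262. Rtl1 (ENSMUSG00000085925), at chr12:109555627-109582007, is on the minus strand and its span overlaps the first part of Rian. Chromosome 7 holds H19 (ENSMUSG00000000031) at chr7:142129262-142133957, Igf2 (ENSMUSG00000048583) at chr7:142204503-142220694, Cdkn1c (ENSMUSG00000037664) at chr7:143012069-143014806 and Peg3 (ENSMUSG00000002265) at chr7:6706882-6733468, all on the minus strand.

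The first promoter of Meg3 and the promoter of Dlk1 are shown because these neighbours moved in opposite directions in the hip pair and because both hold the core letters that Runx proteins bind. The sequences are the 250 bases before the start site in RefSeq (GRCm38.p6), at chr12:109540746-109540995 for Meg3 and chr12:109452573-109452822 for Dlk1, both on the plus strand, and capitals mark TGTGGT or its complement.
Meg3: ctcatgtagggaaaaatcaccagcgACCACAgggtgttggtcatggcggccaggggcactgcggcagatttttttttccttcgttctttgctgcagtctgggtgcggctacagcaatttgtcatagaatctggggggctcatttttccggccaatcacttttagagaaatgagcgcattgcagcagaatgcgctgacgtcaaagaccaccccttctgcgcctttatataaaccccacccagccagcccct
Dlk1: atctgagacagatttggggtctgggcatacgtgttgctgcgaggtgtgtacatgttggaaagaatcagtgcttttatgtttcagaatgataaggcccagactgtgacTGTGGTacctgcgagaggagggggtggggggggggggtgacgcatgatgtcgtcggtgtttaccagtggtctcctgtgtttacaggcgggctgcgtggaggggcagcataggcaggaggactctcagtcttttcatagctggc
The match lay at -225 from the start site on the minus strand in Meg3 and at -143 on the plus strand in Dlk1. Of all 32851 RefSeq promoter windows of 300 bases, 16.8% held TGTGGT on either strand, and the other 8 of the 10 promoters found for 6 of the 9 genes did not. The Meg3 window also held TATAAA, present in 13.6% of windows on either strand, and CCAAT, present in 37.4%. A match is a string of letters and says nothing on binding.

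Between Dlk1 and Dio3, RefSeq places 114 mature microRNAs from 61 hairpins, with 104 different seeds, so that most of these microRNAs share no seed with a neighbour. Hairpins lie within the span of Meg3 (2), Rtl1 (15), Rian (3) and Mirg (10). The microRNAs below are shown because their RNA is complementary over its full length to a transcript of Rtl1, or because they lie within Meg3, H19 or Igf2. Capitals mark the seed, bases 2 to 8.
miR-431-5p, opposite Rtl1: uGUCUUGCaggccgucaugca
miR-433-3p, opposite Rtl1: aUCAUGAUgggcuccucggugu
miR-127-3p, opposite Rtl1: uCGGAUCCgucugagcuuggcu
miR-434-3p, opposite Rtl1: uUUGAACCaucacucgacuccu
miR-136-5p, opposite Rtl1: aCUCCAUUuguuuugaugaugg
miR-770-3p, in Meg3: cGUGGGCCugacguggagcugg
miR-675-5p, in H19: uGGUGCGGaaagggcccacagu
miR-483-3p, in Igf2: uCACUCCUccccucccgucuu
No seed is shared among these, and 13 mature microRNAs of 7 hairpins matched the complement of an Rtl1 transcript, of which 3 were searched. Poly-A libraries do not capture mature microRNAs. The 59 microRNA genes counted between Dlk1 and Dio3 summed to 38 counts in the hip control and 17 in the hip TMX library, and the 18 small nucleolar RNA genes to 13 and 2, against 0 for both classes in the knee. Mir675 and Mir483 were at 0 in all 4 libraries. The values below therefore concern the long host transcripts only.

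Ratios are on the log2 scale, TMX library over control library of the same joint after TMM scaling with 0.5 added to each count, followed by the 95% counting interval. The interval holds counting error only, and with no second library of any condition no difference between animals was measured. A gene was called higher or lower when its ratio was at least 1 in size and its interval excluded 0. By this rule 5 of the 9 genes were called higher and 1 lower in the hip pair, where 20.2% of the 19856 genes tested were called higher and 16.3% lower. In the knee pair 2 of the 9 were called higher and 0 lower, where 9.00% of 21131 genes were called higher and 6.81% lower. The interval alone lay above 0 for 6 and below 0 for 1 of the 9 genes in the hip, against 37.3% and 33.7% of all genes tested, and for 4 and 1 in the knee, against 31.9% and 29.7%. With a smaller ratio limit, which calls 28.1% of hip genes higher and 23.5% lower, 5 of the 9 were called higher and 1 lower, and in the knee, where it calls 16.4% higher and 13.7% lower, 4 were called higher and 0 lower. The knee files list 54838 gene identifiers and no summary lines, the hip files 50686 identifiers and such lines, so the files were not made alike and levels are not compared between joints.

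**Figure D1:**
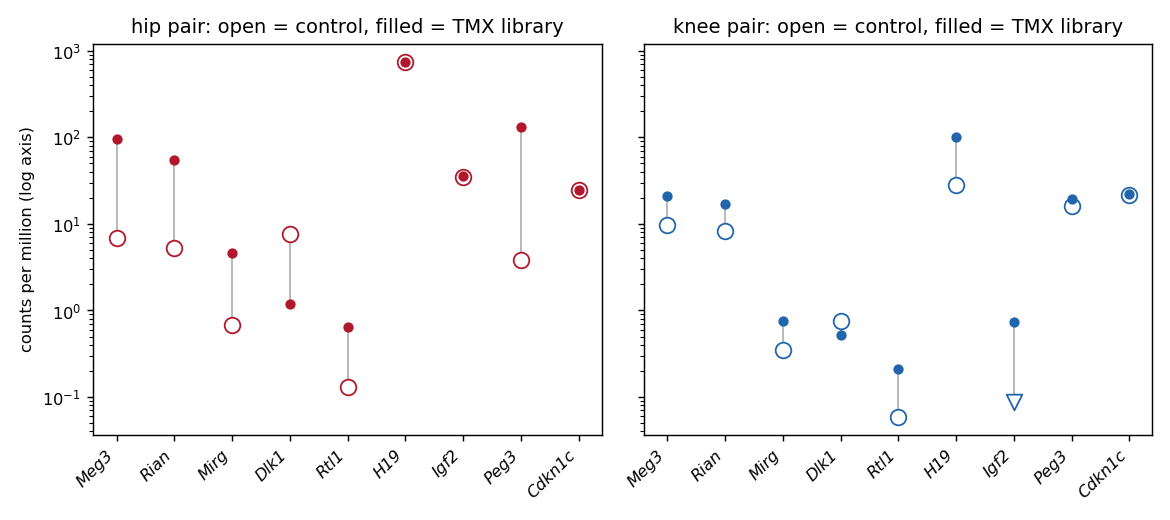
CPM of the 9 imprinted genes on a log axis, with the control library as an open circle and the TMX library as a filled circle, for the hip pair (left) and the knee pair (right). The open triangle marks the 3-count floor for Igf2, which had 0 counts in the knee control. Meg3, Rian, Mirg, Rtl1 and Peg3 (TMX higher) and Dlk1 (TMX lower) lie far apart in the hip, while H19 and Igf2 lie apart in the knee only.

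Meg3, Rian and Mirg, the maternal noncoding RNAs described here, were called higher in the hip TMX library. Their knee ratios lay just under the call limit. Meg3, a nuclear noncoding RNA named for its maternal expression, had 264 counts in the hip control and 3314 in the hip TMX library, or 6.86 and 95.8 CPM. It had 333 counts in the knee control and 796 in the knee TMX library, or 9.72 and 20.8 CPM. The hip TMX library thus stood well above its control, and the knee libraries were closer together. The Meg3 ratio was 3.85 (3.67 to 4.03) in the hip and 0.92 (0.73 to 1.11) in the knee. Of the genes tested, 1.26% were at least as high in the hip and 12.5% in the knee.

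Rian, which hosts small nucleolar RNAs in its introns, had 203 and 1891 hip counts, against 281 and 657 knee counts, control first. Its ratio was 3.41 (3.21 to 3.63) in the hip and 0.88 (0.68 to 1.09) in the knee. Mirg, the host of the last microRNA cluster, had 26 and 158 hip counts, against 12 and 29 knee counts. Its ratio was 2.78 (2.20 to 3.46) in the hip, and in the knee 0.90 with an interval that held 0 (-0.08 to 2.04). Mirg was the lowest of the 3 in each of the 4 libraries by CPM per kilobase, whether of all annotated exons or of the longest transcript. Meg3 lay above Rian per kilobase of exons, at 0.355 against 0.165 in the hip control, and below it per kilobase of the longest transcript, at 0.472 against 0.653, so their order depends on the length used. Summed, the 3 RNAs had 493 and 5363 counts in the hip, a ratio of 3.64 (3.51 to 3.78), and 626 and 1482 in the knee, a ratio of 0.90 (0.77 to 1.04).

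Within a library the proportions of these RNAs do not depend on scaling. The count of Rian over that of Meg3 was 0.844 (0.717 to 0.992) in the knee control and 0.825 (0.743 to 0.916) in the knee TMX library, so their intervals overlapped. In the hip it was 0.769 (0.637 to 0.927) in the control and 0.571 (0.539 to 0.604) in the TMX library, where the intervals did not overlap. Mirg over Meg3 was 0.0360 and 0.0364 in the knee, against 0.0985 (0.0632 to 0.148) and 0.0477 (0.0404 to 0.0559) in the hip. In the hip, therefore, there were fewer Rian and Mirg counts per Meg3 count in the TMX library, and in the knee the proportions lay within counting error.

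Several measures moved with these 3 RNAs. Ratios also depended on the length and GC content of transcripts, so an adjusted ratio was formed by taking away the median ratio of transcripts of like length and like GC content. The adjusted hip ratio was 3.28 (3.10 to 3.47) for Meg3 and 1.96 (1.76 to 2.18) for Rian, and the adjusted interval of Mirg (2.42 to 3.68) overlapped that of Meg3, so the lower proportion of Mirg in the hip depends on the adjustment. The adjusted knee ratios were 0.65 for Meg3, 0.72 for Rian and 0.82 for Mirg. Of 14 other long noncoding RNAs, most of them nuclear or hosts of small RNAs, 13 were called higher and 0 lower in the hip, with a median ratio of 2.55 and a range from -0.75 to 4.38. Their adjusted hip median was 1.92. Malat1, an RNA of nuclear speckles, had 2751 and 20564 hip counts, and Neat1, the scaffold of paraspeckles, had 2742 and 49846. The hip ratio was 3.10 for Malat1 and 4.38 for Neat1, or 2.05 and 3.77 when adjusted. In the knee the same 14 RNAs had a median ratio of -0.25, with 2 called higher and 1 lower, beside all-gene shares of 9.00% and 6.81%. Over all 1698 annotated long noncoding RNAs tested in the hip, 28.3% were called higher and 23.7% lower, with a median of 0.08. The part of transcript length and GC content or of noncoding RNAs in general in the Meg3, Rian and Mirg values was not tested.

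The knee calls for these RNAs lay near the limit. Scaled to total counts on genes in place of TMM, which raises every knee ratio by 0.18, Meg3 had a ratio of 1.10, Rian 1.07 and Mirg 1.08, and all 3 were then called higher.

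**Figure D2:**
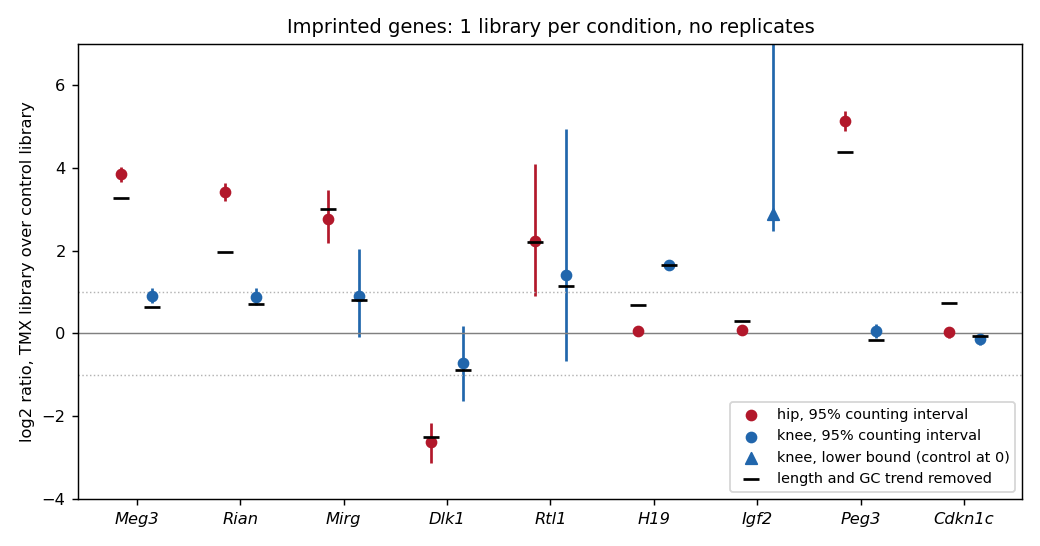
log2 ratio of the TMX library over the control library for the 9 genes in the hip (red) and the knee (blue), with 95% counting intervals as vertical lines. The short black bars show the adjusted ratios, with the share of transcript length and GC content taken away, and dotted lines mark the limit of 1. Igf2 in the knee is drawn at 2.88, a bound that sets the 0 counts of its control to the 3-count floor. Its interval begins at 2.49 and has no upper end. Peg3 and Meg3 have the largest hip ratios, and Dlk1 in the hip is the only one of the 9 below -1.

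The paternal genes of the same domain did not move as one. Dlk1, a membrane protein related to Notch ligands that marks preadipocytes and keeps progenitor cells from maturing, had 291 counts in the hip control and 41 in the hip TMX library. It had 26 and 20 counts in the knee. The hip counts were thus clearly apart, and the knee counts too few to separate the libraries. The ratio of Dlk1 was -2.61 (-3.14 to -2.15) in the hip, where 5.55% of tested genes were at least as low, and -0.71 (-1.64 to 0.18) in the knee. The adjusted hip ratio was -2.50. There were 1.10 Dlk1 counts per Meg3 count in the hip control (0.930 to 1.31). In the hip TMX library this ratio was 0.0124 (0.00886 to 0.0168). In the knee it was 0.0781 (0.0503 to 0.116) in the control and 0.0251 (0.0153 to 0.0391) in the TMX library, so the intervals of the knee pair did not overlap either.

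Rtl1, a retrotransposon-derived protein needed in placenta and muscle, had 5 and 22 hip counts, against 2 and 8 knee counts. Its ratio was 2.23 (0.90 to 4.09) in the hip and 1.43 (-0.66 to 4.93) in the knee. These counts are too few to place the ratio closely. Rtl1 overlaps Rian and the precursors of the opposing microRNAs on the other strand, and whether the counting used strand is not given in the sources used here, so reads from either strand cannot be told apart. The 0.0246 Rtl1 counts per Rian count in the hip control (0.00791 to 0.0584) and 0.0116 in the TMX library (0.00727 to 0.0177) had overlapping intervals.

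Markers of other cell types went both ways in the hip, where the all-gene shares were 20.2% called higher and 16.3% lower. Of 13 adipocyte markers, 4 were called higher and 4 lower there, with a median of 0.28, and they took 0.246% of the control and 0.379% of the TMX counts. Of 12 fibroblast and tenocyte markers, 0 were called higher and 7 lower, with a median of -1.23 and shares of 0.137% and 0.0589%. Col3a1, a collagen of loose connective tissue, had 9878 and 1850 hip counts, and Fmod, a tendon proteoglycan, had 11027 and 1725. Dcn, with 17218 and 10726, had a ratio of -0.49 and was not called. The ratios of this list ran from -2.48 to 0.99, with 2 intervals above 0 and 9 below. Of 10 satellite cell and myogenic regulators, 3 were called higher and 0 lower, with shares of 0.0189% and 0.0259%. Of 12 osteoblast and osteocyte markers, 2 were called higher and 5 lower, with shares of 0.0949% and 0.0278%, and Col1a1, the main collagen of bone, had 29148 and 5430 counts. Of 9 erythroid markers, 0 were called higher and 4 lower, with shares of 0.589% and 0.222%. The part of these markers in the Dlk1 value was not tested.

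At the far end of the domain, Dio3, an enzyme that inactivates thyroid hormone, had 24 and 21 hip counts, against 12 and 24 knee counts, with intervals that held 0 in both joints. Among the flanking genes, Ppp2r5c, a phosphatase subunit, had ratios of 0.74 in the hip and -0.05 in the knee, and Wdr25 had -0.68 and -0.19, none of them called. Begain, a neighbour on the side of Dlk1, had 4 and 7 hip counts, against 6 and 44 knee counts, a knee ratio of 2.44 (1.30 to 4.06) that was called higher. These 4 neighbours were described after their values were seen. So were the other plus-strand genes tested in the hip between Rian and Mirg, which had few counts and did not rise there. B830012L14Rik had 19 and 13 hip counts, a ratio of -0.33 (-1.49 to 0.74), and Gm37899 had 9 and 5. Mir411, at 12 and 0 in the hip, was called lower. In the knee Gm37899, at 0 and 10, was called higher.

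**Figure D3:**
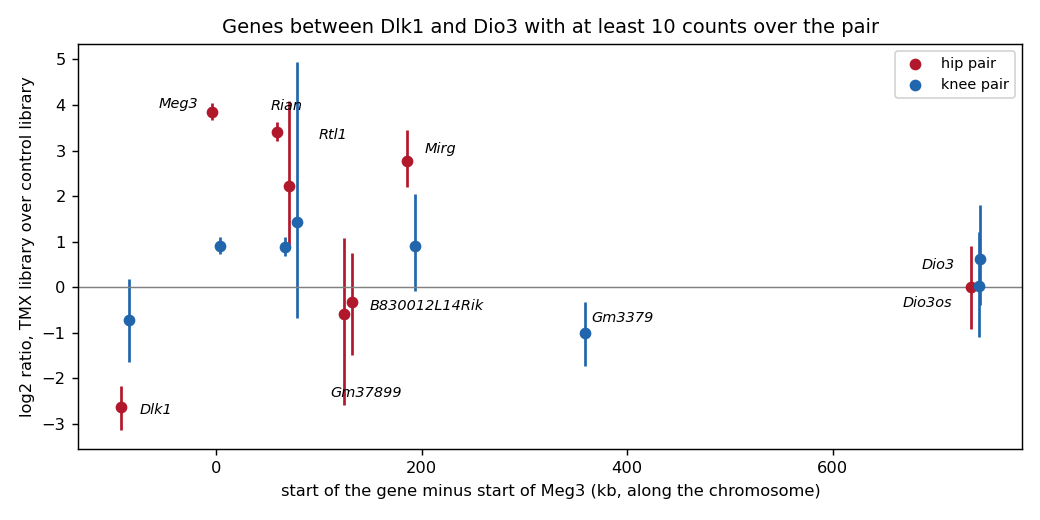
log2 ratio of the genes between Dlk1 and Dio3 with at least 10 counts over the pair, against the distance of their start from that of Meg3 in kilobases, for the hip (red) and the knee (blue). Vertical lines are 95% counting intervals, and genes with 0 counts in one library are left out. In the hip, Meg3, Rian, Rtl1 and Mirg lie above 2, and Dlk1 lies at -2.61.

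H19 was by far the most abundant of the 9 genes in the hip, and its direction there was set by the scaling. H19, a fetal noncoding RNA that persists in skeletal muscle and is the precursor of miR-675, had 28416 counts in the hip control and 25908 in the hip TMX library, or 739 and 749 CPM. It had 978 counts in the knee control and 3875 in the knee TMX library, or 28.5 and 101 CPM. The hip libraries were nearly equal and the knee libraries well apart. The ratio was 0.06 (0.04 to 0.09) in the hip, which became -0.00 with DESeq2 size factors, and the adjusted ratio was 0.70. The knee ratio was 1.65 (1.55 to 1.75), where 4.71% of tested genes were at least as high, and the adjusted one was 1.66.

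Igf2, the fetal insulin-like growth factor, had 1345 and 1247 counts in the hip, a ratio of 0.09 (-0.02 to 0.20), or 0.31 when adjusted. In the knee control it had 0 counts, and in the knee TMX library 28 counts, or 0.732 CPM. With the control set to the floor of 3 counts, or 0.0876 CPM, Igf2 was 7.38-fold higher in the knee TMX library. Its counting interval began at a log2 ratio of 2.49, below the 2.88 given by the floor, and had no upper end. The unadjusted hip ratio lay within counting error of 0, while in the knee Igf2 was found in the TMX library only. In the hip the count of H19 over Igf2 was 21.1 in the control and 20.8 in the TMX library, with overlapping intervals. In the knee TMX library it was 138 (95.6 to 209), and in the knee control, with 978 counts against 0, its lower limit was 265, so the intervals of the knee pair did not overlap.

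Nctc1, a noncoding RNA from the muscle enhancers of the domain, was described after its values were seen. It had 3201 and 7861 counts in the hip, a ratio of 1.49 (1.43 to 1.55), and 392 and 867 in the knee, a ratio of 0.80 (0.63 to 0.98). Nctc1 over H19 was 0.113 and 0.303 in the hip pair, against 0.401 and 0.224 in the knee pair. In the hip Nctc1 was thus higher beside an H19 that was nearly equal, and in the knee it was higher by a smaller factor than H19. The neighbouring Tnnt3, a troponin of fast muscle fibres, had ratios of -0.21 in the hip and 0.66 in the knee.

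Skeletal muscle markers moved with H19 in the knee. All 26 muscle markers had counting intervals above 0 there, 15 of them were called higher and 0 lower, and their median ratio was 1.03 over a range from 0.14 to 4.42. Acta1, the actin of muscle fibres, had 81310 and 191596 knee counts, Atp2a1, their calcium pump, 16982 and 103851, and Myh4, a fast myosin, 56406 and 150449. In the hip, where unadjusted H19 was nearly equal, the muscle markers had a median of 0.06 with 3 called higher and 4 lower. Their hip counting intervals lay above 0 for 12, below 0 for 13 and held 0 for 1, so these markers went both ways there. When adjusted, the hip ratio of H19 was 0.70 and the hip median of the muscle markers was 0.24. The adipocyte markers were also higher in the knee TMX library, with 6 of 12 called higher and a median of 1.17. Of the 16 chondrocyte markers, 0 were called higher and 10 lower in the knee. The knee erythroid markers took 9.99% of the control and 4.94% of the TMX counts, with 0 of 9 called higher and 4 lower. Osteoblast and osteocyte markers took 1.43% and 0.804%, with 1 of 12 called higher and 5 lower. Macrophage and osteoclast markers took 0.363% and 0.218%, with 0 of 10 called higher and 4 lower. The all-gene shares in the knee were 9.00% called higher and 6.81% lower. The part of these markers in the H19 and Igf2 values was not tested.

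Peg3 had the largest hip ratio of the 9 genes. Peg3, a paternally expressed zinc finger protein that regulates growth and nutrition and is found in muscle progenitor cells, had 147 counts in the hip control and 4528 in the hip TMX library, or 3.82 and 131 CPM. It had 559 and 737 counts in the knee, or 16.3 and 19.3 CPM. The hip libraries were far apart and the knee libraries nearly equal. The ratio was 5.14 (4.91 to 5.39) in the hip, where 0.368% of tested genes were at least as high, and 0.06 (-0.10 to 0.22) in the knee. The adjusted ratios were 4.38 and -0.16, so the sign of the knee value depends on the adjustment.

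Zim1, a maternally expressed zinc finger gene next to Peg3, had 37 and 398 counts in the hip, a ratio of 3.61 (3.14 to 4.15), and 18 and 56 in the knee, a ratio of 1.27 (0.51 to 2.15). Its adjusted ratios were 2.34 and 1.12. Usp29, which starts 0.109 kilobases from Peg3 on the other strand, had 61 and 99 hip counts, against 2 and 12 knee counts, and was described after its values were seen. There were 0.415 Usp29 counts per Peg3 count in the hip control (0.303 to 0.563) and 0.0219 (0.0177 to 0.0267) in the hip TMX library. The neighbour that starts beside Peg3 thus had a far smaller hip ratio, 0.89 (0.42 to 1.38), while its knee ratio of 1.98 (0.08 to 5.45), from few counts, was called higher where that of Peg3 was 0.06. In the hip pair Peg3 counts per Meg3 count were 0.557 in the control and 1.37 in the TMX library, and in the knee pair 1.68 and 0.926.

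Cdkn1c was nearly equal in both pairs. Cdkn1c, the maternally expressed cyclin-dependent kinase inhibitor of the Cip/Kip family, had 959 and 855 hip counts, against 741 and 848 knee counts. The ratios were 0.03 (-0.10 to 0.17) and -0.14 (-0.29 to -0.00). The first changed sign to -0.04 with DESeq2 size factors and was 0.73 when adjusted, and the second was 0.04 with scaling to total counts. Kcnq1ot1, the paternal noncoding RNA of the domain that holds Cdkn1c, had 262 and 710 hip counts, against 1406 and 1255 knee counts. It was described after its values were seen, with ratios of 1.63 (1.43 to 1.85) and -0.50 (-0.61 to -0.39). Its adjusted hip ratio was 0.26. Of the 7 Cip/Kip and INK4 inhibitors, 1 was called higher and 1 lower in the hip, and 0 higher and 2 lower in the knee. Cdkn1a, which encodes p21 of the same family, had 1551 and 3362 hip counts, against 2145 and 1353 knee counts.

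Per kilobase of annotated exon, the order of the 9 genes differed between the libraries. In the hip control H19 came first at 259 CPM per kilobase, followed by Cdkn1c at 11.6, Igf2 at 5.67, Dlk1 at 1.25, Meg3 at 0.355 and Peg3 at 0.280. The intervals of Meg3 and Peg3 overlapped, and Rian, Mirg and Rtl1 came last. In the hip TMX library H19 was again first at 263, Cdkn1c second at 11.5, and then came Peg3 at 9.58, Igf2 at 5.85 and Meg3 at 4.96, while Dlk1 at 0.196 and Rtl1 at 0.0935 were last. Peg3, Meg3, Rian and Mirg thus stood above Dlk1 there, and Peg3 above Igf2.

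In the knee control Cdkn1c and H19 were both at 10.0 CPM per kilobase with overlapping intervals, ahead of Peg3 at 1.19, Meg3 at 0.503 and Rian at 0.256. In the knee TMX library H19 stood first at 35.6, followed by Cdkn1c at 10.3, Peg3 at 1.41, Meg3 at 1.08 and Rian at 0.537. Igf2, Dlk1, Mirg and Rtl1 were lowest there, and each overlapped its neighbour in this order. Per kilobase of the longest transcript Rian instead lay above Meg3 in all 4 libraries, and above Peg3 in the hip control and the knee TMX library.

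Beyond the 9, the lists of imprinted domains held 67 further genes, of which 65 were in the files. In the hip 54 of them were tested, 14 were called higher and 8 lower, and the median ratio was 0.18 beside 0.01 over all genes. With adjusted ratios 8 were called higher and 10 lower, so the balance of directions in the hip depends on the adjustment. In the knee 55 were tested, 9 were called higher and 1 lower, and the median was 0.16 beside 0.02 over all genes. These shares of higher calls can be set against the 20.2% and 9.00% of all genes called higher. Of the lists drawn up by parental allele, the 18 tested genes expressed from the paternal copy had a hip median of 0.73 with 7 called higher and 4 lower. The 15 expressed from the maternal copy, Zim1 among them, had a hip median of 0.07 with 4 called higher and 2 lower. The adjusted hip medians of these 2 lists were 0.51 and 0.12. The unadjusted medians in the knee were 0.26 and 0.17.

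A few imprinted genes were called in both joints. Zdbf2, a paternally expressed gene, had 18 and 117 hip counts, against 2 and 18 knee counts, with ratios of 2.86 and 2.55. Rasgrf1, a paternally expressed exchange factor for Ras, had 25 and 78 hip counts, against 6 and 35 knee counts, with ratios of 1.82 and 2.11. Along with Zim1, these were higher in both TMX libraries.

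Syt8, a synaptotagmin gene in the H19-Igf2 region, was lower in both, with 28 and 7 hip counts, against 362 and 28 knee counts, a knee ratio of -4.01 (-4.64 to -3.48). Nnat, a paternally expressed membrane proteolipid, was lower in the hip, with 788 and 31 counts, and higher in the knee, with 241 and 763. Its ratios were -4.45 (-5.04 to -3.95) and 1.32 (1.11 to 1.54). Other lower genes in the hip were Sfmbt2, a paternally expressed polycomb protein, with 193 and 16 counts, and Slc22a2, a maternally expressed cation transporter, with 137 and 25.

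Other higher genes in the knee were Gnas, the stimulatory G protein alpha subunit, with 555 and 3048 counts and a ratio of 2.12 (1.99 to 2.25), and Mest, a paternally expressed hydrolase, with 54 and 168 counts and a ratio of 1.29 (0.85 to 1.77). In the hip Gnas had 2701 and 1758 counts and Mest 60 and 65, so neither was called there.

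**Figure D4:**
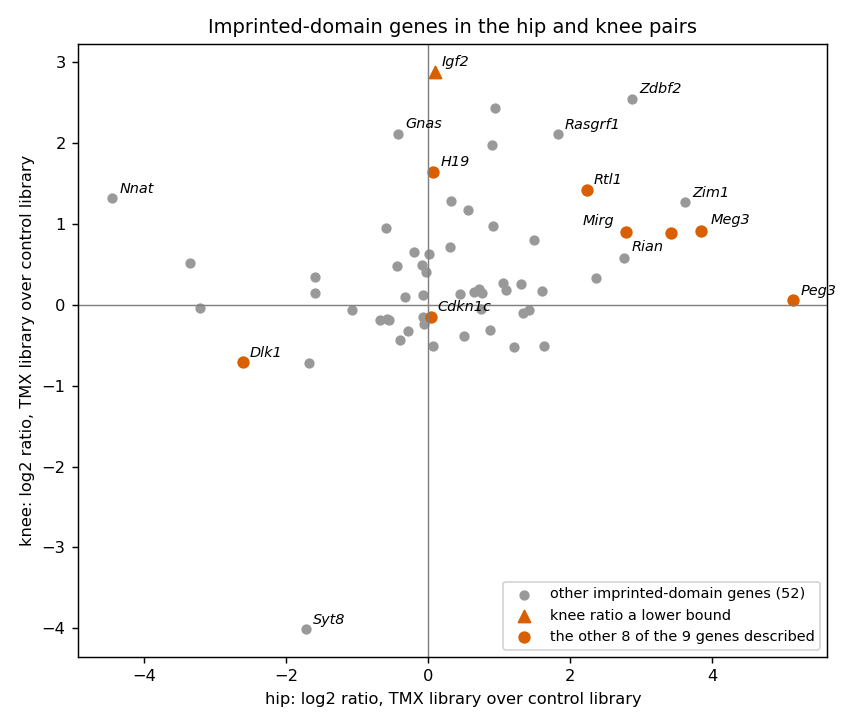
log2 ratio in the knee pair against that in the hip pair for the 9 genes (orange) and the other 52 imprinted-domain genes tested in both (grey), where each point is 1 gene compared between 1 library and 1 library per joint. The triangle marks Igf2, whose knee ratio is a lower bound. Meg3, Rian, Mirg and Peg3 lie far to the right, H19 and Igf2 lie above 1 at a hip ratio near 0, and Nnat lies on the opposite side of 0 in the joints.

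Of 16 genes of the growth factor system to which Igf2 belongs, 15 were tested in each pair, beside all-gene shares of 20.2% called higher and 16.3% lower for the hip pair, against 9.00% and 6.81% for the knee pair. In the hip 4 were called higher and 6 lower, with a median of -0.85, and in the knee 3 higher and 2 lower, with a median of 0.08. Igfbp5, a binding protein rich in musculoskeletal tissue, had 21152 and 7082 counts in the hip, a ratio of -1.38 (-1.42 to -1.34), and 6535 and 19976 in the knee, a ratio of 1.27 (1.23 to 1.31). Igfbp4, a binding protein that limits the action of the growth factors, had ratios of -0.85 and -0.52, and Igfbp7, a related secreted protein, -0.99 and 0.08. These 3 binding proteins had hip ratios below 0, while Igfbp3, named after its values were seen, had 427 and 1142 hip counts, a ratio of 1.62 (1.46 to 1.78).

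The RNA-binding proteins that attach to Igf2 and H19 transcripts were looked at after their values were seen. Igf2bp1 had 147 and 9 counts in the hip, a ratio of -3.76 (-4.99 to -2.87). It had 56 and 0 in the knee, 23.6-fold lower with the 0 set to the 3-count floor. Igf2bp3 had 208 and 13 counts in the hip, a ratio of -3.75, and 22 and 25 in the knee. Igf2bp2 was called higher in the hip, with 28 and 56 counts and a ratio of 1.18 (0.52 to 1.91), and had 113 counts in either knee library. Igf2r, the imprinted receptor that clears Igf2, had ratios of 0.65 (0.58 to 0.71) and 0.16 (0.06 to 0.25).

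For the Notch pathway, to which Dlk1 is related, 13 genes were tested in each pair. In the hip 1 was called higher and 2 lower, of which none reached the limit when adjusted, with a median of 0.27, and in the knee 2 higher and 1 lower, with a median of -0.15. Hes1, a repressor that Notch switches on, had 988 and 423 counts in the hip, a ratio of -1.03 (-1.19 to -0.86) or -0.30 when adjusted, and 1106 and 967 in the knee, a ratio of -0.53. The receptor Notch2 had ratios of 0.84 and 0.32, and the ligand Jag2 0.24 and 1.16. Of all genes tested, 20.2% were called higher and 16.3% lower for the hip pair, against 9.00% and 6.81% for the knee pair.

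**Figure D5:**
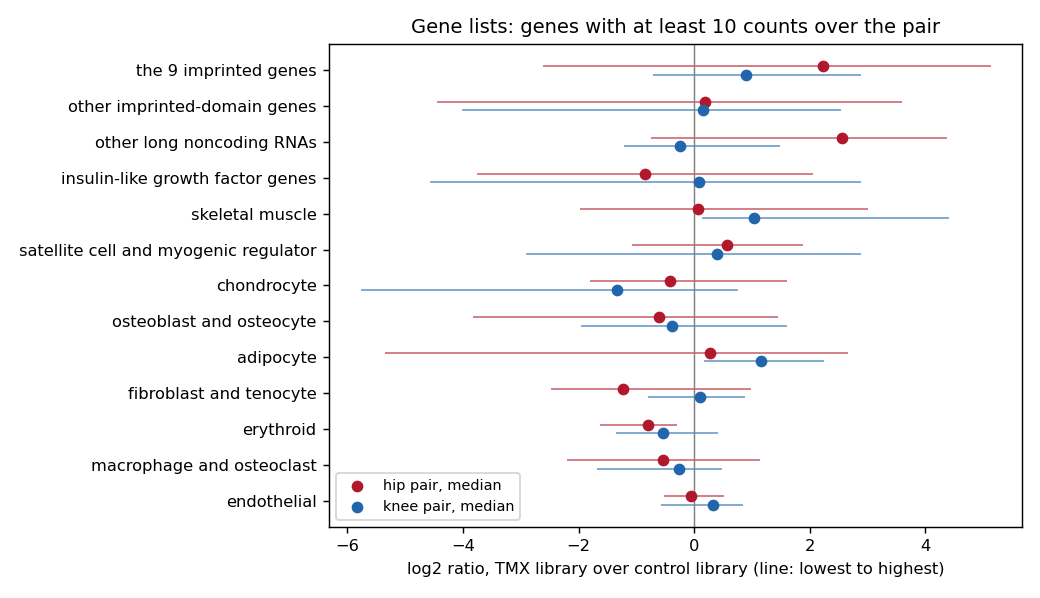
Median log2 ratio (points) and the lowest to highest ratio (lines) of the genes of each list with at least 10 counts over the pair, for the hip (red) and the knee (blue), with genes at 0 in one library drawn at the bound set by 3 counts. Of the 13 lists drawn, the other long noncoding RNAs have the highest hip median at 2.55, and the skeletal muscle and adipocyte markers have knee medians above 1.

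The genes whose pair of ratios lay nearest to that of Meg3, among 11044 genes whose better covered library reached 100 counts in each pair, were Rsrp1, Napb, Zfp445, Prdm9 and Malt1. The closest, Rsrp1, an arginine and serine rich protein, lay at a distance of 0.252 on the log2 scale, with ratios of 3.96 and 0.69, and 8 genes lay within 0.5. Nearest to H19 were Cand2, Mical1, 3425401B19Rik, Mapkapk5 and Scn4a, with Cand2 at a distance of 0.0587 and 115 genes within 0.5. Scn4a, the sodium channel of skeletal muscle, had 20873 and 20218 hip counts, against 428 and 1753 knee counts. Likeness over 2 ratios, each from 1 library against 1, is a description only.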

How the data were processed

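Libraries made from poly-A RNA, 1 per condition, were compared within each joint. The counts that the authors deposited are whole numbers per Ensembl gene and are not normalized. The study's methods name GRCm39 and a later version of STAR than the labels do. The labels name mm10, and per their processing notes FastQC 0.11.3 and STAR 2.0 were used. Hip values carry the summary lines of HTSeq, left out here (25.8% and 24.6% of the reads listed). The knee counter and the strand setting are not given in the sources used here. Identifiers were matched to GENCODE (GRCm39) for 91.8% of the hip and 92.6% of the knee rows. Zrsr1, Nespas and Ahsp had no match. Promoters and microRNAs came from RefSeq (GRCm38.p6).

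Each pair was scaled separately by TMM (edgeR 4.0.16, R 4.3.3), or alternatively by size factors of DESeq2 1.42.0, and ratios were computed in Python 3.11.15 (numpy 2.4.6, pandas 2.3.3, scipy 1.17.1, matplotlib 3.10.9). Intervals are exact 95% Clopper-Pearson intervals. Genes with at least 10 counts over the pair were tested against the call rule. For adjusted ratios, genes were put into 20 bins by transcript length and the median of the bin was subtracted, then likewise by GC content, and this was done in 2 rounds. No p-value was computed. The ratio, interval and call were tested on simulated counts that held counting error only, with no spread between animals. No length or GC trend was put into them, so they do not test the removal of such a trend.

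The 9 genes, the lists and the rules were chosen with earlier results of these data known. Named genes are the 9, imprinted genes called in both pairs, the 4 largest rises and falls per pair where 1 library of the pair reached 50 counts, up to 3 genes of each other list by counts, the 5 genes nearest to Meg3 and to H19, and Cbfb. Others are named as chosen after their values were seen.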

Additional observations from a re-analysis of the deposited data

Results flagged for a closer look

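Genes of the imprinted domains that reached 50 counts over each pair were looked at again where the ratio was at least 1 in size in one joint and of the opposite sign in the other, each with a counting interval that excluded 0. The difference between the joints was not tested, since each ratio rests on 1 library against 1. The joints also differ in Cre line, age, tissue make-up, kind of control and the set of genes listed in the files, which cannot be told apart. The hip control was labelled with no treatment and no Cre, while the knee control carried Cre and received oil. The study describes its hip samples as pure cartilage and its knee samples as cartilage with bone. Skeletal muscle markers took 21.7% of the hip control counts and 1.59% of the knee control counts. None of the 9 genes met the rule above. Nnat had a log2 ratio of -4.45 in the hip and 1.32 in the knee. Gnas had -0.42 in the hip and 2.12 in the knee. Kcnq1ot1 had 1.63 in the hip and -0.50 in the knee, and Ube3a 1.21 in the hip and -0.52 in the knee. Adjusted for transcript length and GC content, the hip ratio of Kcnq1ot1 was 0.26 and that of Ube3a -0.27, so that both hip values depend on that step.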

How the results depend on the processing

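The 6 calls among the 9 genes in the hip stayed at 6 under 7 of 8 alternatives and fell to 5 when each library had to reach 10 counts, since Rtl1 had 5 counts in the control. The 2 knee calls became 5 with scaling to total counts on genes, 1 with at least 10 counts in each library, which removes Igf2, and 4 with a smaller ratio limit. Among the other imprinted genes the 10 knee calls became 6 with at least 10 counts in each library and 16 with the smaller limit, and the 22 hip calls ranged from 18 to 31. Of the 18 ratios of the 9 genes, 8 moved beyond their counting interval when adjusted for transcript length and GC content, 4 with total counts and 1 with DESeq2 size factors, and none did with 2 added to each count or with muscle genes left out of the scaling. No called ratio changed sign. No paired analysis was possible because each condition has 1 library, and for the same reason no replicate could be left out. Depth limits Rtl1, Mirg, Dlk1 and Igf2 in the knee, each with 29 counts or fewer in both libraries, and Rtl1 in the hip.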
